A study of Mus musculus with 10 samples.

Results

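The core circadian clock loop was examined through its 10 genes Arntl, Clock, Npas2, Per1, Per2, Per3, Cry1, Cry2, Nr1d1 and Nr1d2, chosen by name among the 43629 genes of a bulk liver RNA-seq count table. All 10 were among the 14143 genes with enough reads to test. The livers came from adult male mice of a genetic lung tumour model (Lkb1 flox/flox among its alleles), in which Cre recombinase delivered to the airways acts on the engineered alleles and lung tumours form. Tumour-bearing mice were divided by body weight loss into 5 labelled cachectic (CACS, numbered 16 to 20, weight change -33 to -29%) and 5 labelled non-cachectic (NCACS, numbered 11 to 15, weight change -14 to -3%). Both groups carried the same alleles and received the same Cre virus under a CMV promoter, and no tumour-free liver was used here, so every value compares 2 groups of tumour-bearing mice. Mice were kept in a light and dark cycle and received rodent chow. Neither the labels nor the methods give the hour at which each liver was taken, so hour and group cannot be told apart in these data, and no phase was assigned to any liver.

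The mammalian clock is a feedback loop of transcription. The activators BMAL1 (encoded by Arntl) and CLOCK or its relative NPAS2 bind E-boxes and switch on the Per and Cry genes, whose proteins return to the nucleus and inhibit the activators. The same activators switch on Nr1d1 and Nr1d2, which encode the haem-binding repressors REV-ERBα and REV-ERBβ. These repress Arntl, Npas2 and Cry1 through RORE sites that the ROR activators share. In a liver of a mouse on a regular schedule, Arntl and Npas2 are therefore high when Nr1d1, Per1, Per2 and Per3 are low, and transcript levels of the loop depend strongly on the hour of day. The liver clock is also reset by feeding.

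Binding elements of the loop could be read in the RefSeq promoter table (GRCm38.p6), which matched 9 of the 10 genes with 13 windows of 250 bases before and 50 bases after an annotated start. Per2 had no window. Each window was searched on both strands for the E-box CACGTG, the related E′-box that reads CACGTT, the RORE core that reads TAGGTCA or TGGGTCA, the D-box that reads TTATGTAA or TTATGCAA, and the CRE that reads TGACGTCA. An E′-box on the other strand reads AACGTG. No element overlapped another. The stretches shown here run from base 250 to base 11 before the start, on the strand of the gene, with each matched element in capitals. They are shown because they hold every E-box and D-box match among the 9 matched genes. They also hold the E′-box of Nr1d1, the gene of the loop with the smallest p between groups by edgeR. The 240 bases of Per1 lie at chr11:69098699-69098938 (+), those of Per3 at chr4:151044676-151044915 (-), those of Cry1 at chr10:85185065-85185304 (-) and those of Nr1d1 at chr11:98775388-98775627 (-), and none of them overlaps an annotated exon.
Per1: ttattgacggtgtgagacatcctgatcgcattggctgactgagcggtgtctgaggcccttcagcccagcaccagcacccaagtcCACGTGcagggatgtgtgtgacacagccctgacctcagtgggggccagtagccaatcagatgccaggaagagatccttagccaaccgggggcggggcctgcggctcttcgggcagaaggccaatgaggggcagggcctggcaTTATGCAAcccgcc
Per3: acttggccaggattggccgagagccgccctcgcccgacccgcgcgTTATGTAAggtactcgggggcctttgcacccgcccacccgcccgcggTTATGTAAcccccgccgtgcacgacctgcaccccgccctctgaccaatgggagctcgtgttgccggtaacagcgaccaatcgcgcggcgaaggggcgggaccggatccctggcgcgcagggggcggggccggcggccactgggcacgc
Cry1: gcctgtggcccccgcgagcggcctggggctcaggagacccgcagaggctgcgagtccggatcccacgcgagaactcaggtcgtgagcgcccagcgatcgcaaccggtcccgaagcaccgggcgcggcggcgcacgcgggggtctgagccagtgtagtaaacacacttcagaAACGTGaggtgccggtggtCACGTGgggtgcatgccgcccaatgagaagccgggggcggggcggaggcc
Nr1d1: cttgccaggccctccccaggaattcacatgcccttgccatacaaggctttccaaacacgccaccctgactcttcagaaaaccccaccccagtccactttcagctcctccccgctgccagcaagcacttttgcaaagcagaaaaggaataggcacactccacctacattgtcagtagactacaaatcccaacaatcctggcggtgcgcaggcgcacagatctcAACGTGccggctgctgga

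Per1 held an E-box 166 bases before its start and a D-box 24 bases before it, and Per3 held D-boxes at 205 and 158 bases. Cry1 held an E-box at 60 and an E′-box at 79 bases before its start. Nr1d1 had an E′-box at 28 bases, and Cry2 had an E′-box at 166 bases. None of the elements was found in the windows of Clock, Npas2 and Nr1d2. That of Cry1 held no RORE core, and no window of the loop genes held a CRE. In Arntl the search found a RORE core, which begins 30 bases after a RefSeq start. It is shown with its flanking bases, at chr7:113207531-113207557 (+).
Arntl: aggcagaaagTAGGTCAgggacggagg
Of all 32851 windows of 300 bases, 7.15% held an E-box, 4.68% an E′-box, 6.45% a RORE core, 1.66% a D-box and 1.79% a CRE. These matches describe letters in the windows and were not measured as binding.

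The 10 libraries held 31459179 to 40746178 counted reads, with overlapping ranges in both groups. Hepatocyte markers were abundant in every liver (summed level of 7 markers 71106 to 120230 counts per 1000000 counted reads, CPM, in NCACS and 112076 to 140359 CPM in CACS). Of the 7, 1 passed in edgeR, the hepatocyte transcription factor Hnf4a, where 3.8% of all tested genes passed. Its log2 fold change was 0.50 (adjusted p = 0.0435 by edgeR, between 0.000801 and 0.0974 over 17 alternatives, of which 7 kept the call). The 6 Kupffer cell markers, of macrophages that reside in the liver, were all lower on average in CACS livers (summed level 150 to 251 CPM in NCACS, 87.3 to 175 CPM in CACS). Of these Cd5l, a macrophage protein, passed the test of all genes in edgeR (log2 fold change -0.90, adjusted p = 0.0374, between 0.00153 and 0.0862 over 17 alternatives, of which 9 kept the call). The summed level of 5 sinusoidal endothelial markers was 120 to 162 CPM in NCACS and 152 to 198 CPM in CACS, and none passed. The summed level of the 5 stellate cell markers was 123 to 191 CPM in NCACS and 143 to 230 CPM in CACS. Lymphocyte, cholangiocyte, neutrophil and lung alveolar markers summed to at most 12.03 CPM in any liver, and of these Sftpa1, of lung surfactant, passed (log2 fold change 1.27, adjusted p = 0.0323, between 0.000752 and 0.0681 over 17 alternatives, of which 9 kept the call). In whole tissue, fewer cells of a type cannot be told apart from less RNA per cell, and the part of cell makeup in the values of the clock genes was not tested. One liver was often at an end of the range for the clock genes. NCACS 15, from the NCACS mouse with the largest weight loss, was at the highest or lowest end of all 10 livers for 7 of the 10 genes, against at most 4 genes for any other liver (CACS 20). The fitted difference of each core gene and each ratio is therefore also given without NCACS 15. This liver also had the lowest summed hepatocyte level (71106 CPM). How often it lay at an end over all tested genes was not counted, so its position is not shown to be particular to the clock genes.

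The activators had their highest level in that liver. Arntl (chromosome 7, 113207465 to 113314126 of GRCm38, forward strand) had 1.602, 1.54, 7.21, 3.79 and 33.8 CPM in NCACS 11 to 15, and 5.57, 5.30, 8.13, 0.958 and 1.98 CPM in CACS 16 to 20. NCACS 15 was 9.55 times the mean of the other 4 NCACS livers, and these 4 lay within the span of the CACS livers. From NCACS to CACS the log2 fold change of Arntl was -1.13 (standard error, SE, 0.837, adjusted p = 0.466 by edgeR) and turned to 0.32 without NCACS 15 (adjusted p = 0.827). Npas2, which can take the place of Clock as the partner of BMAL1, was the scarcest gene of the loop, with 3, 12, 27, 18 and 253 reads in NCACS 11 to 15 and 8, 17, 0, 7 and 5 reads in CACS 16 to 20. In CPM, NCACS 15 was at 7.81 and the other 9 livers were at or under 0.873, and the count of 0 in CACS 18 allows a level of up to 0.0978 CPM (counting error only). The log2 fold change of Npas2 was -3.22 (SE 1.11, adjusted p = 0.123 by edgeR), and it was -1.13 without NCACS 15 (adjusted p = 0.414). Clock varied least of the activators, at 22.3, 28.1, 26.5, 29.3 and 52.5 CPM in NCACS 11 to 15 and 27.7, 30.7, 24.5, 23.7 and 19.96 CPM in CACS 16 to 20. Its log2 fold change was -0.33 (SE 0.211, adjusted p = 0.397 by edgeR), and -0.07 without NCACS 15.

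**Figure D1:**
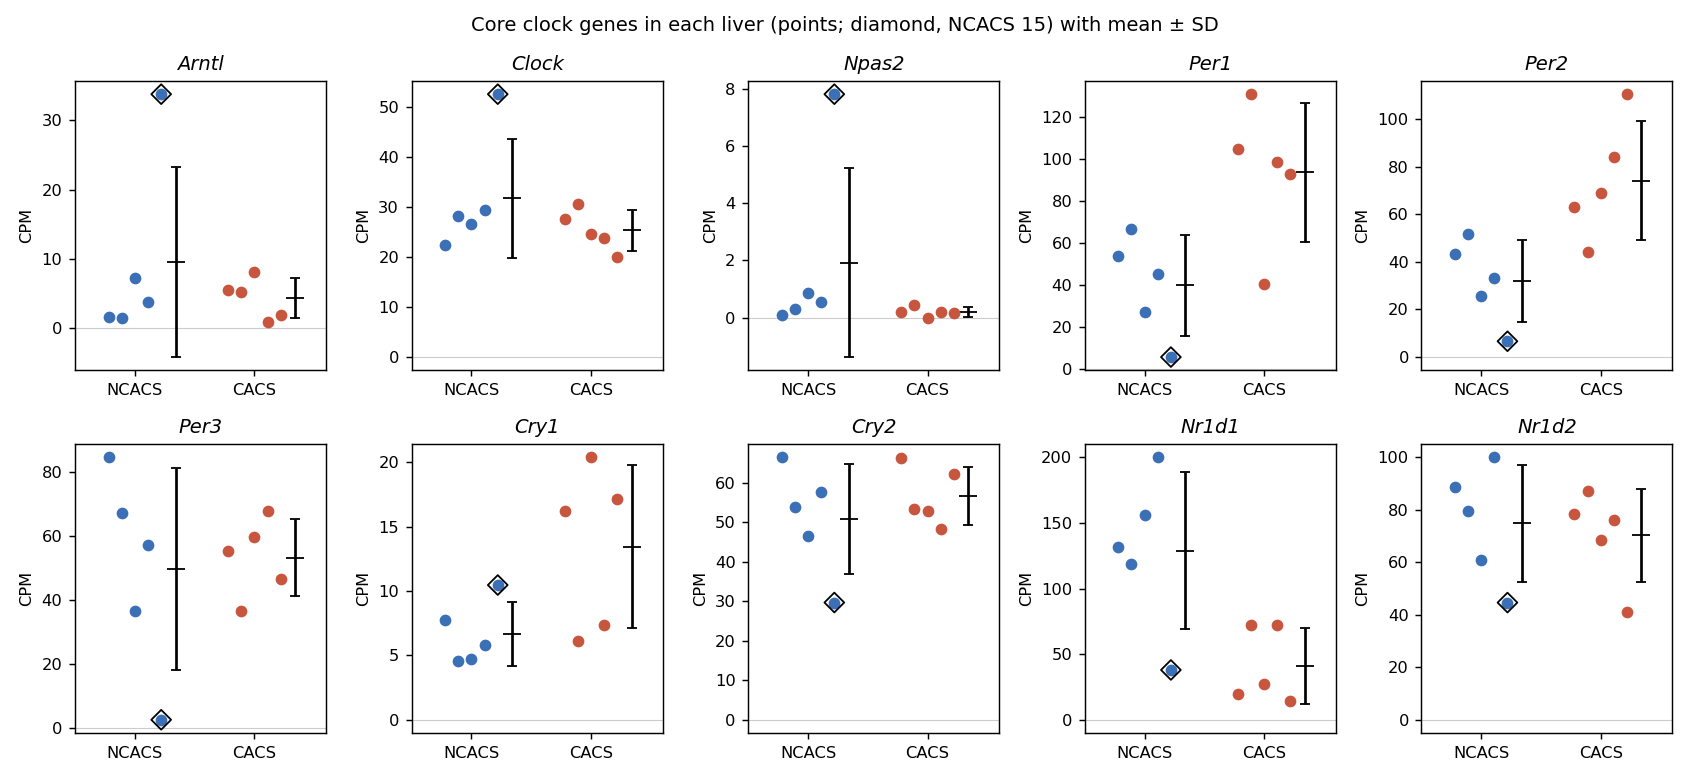
Level of each of the 10 core clock genes in CPM (y axis, linear, own scale per panel) in the 5 NCACS and 5 CACS livers; each point is 1 liver in the order of mouse number, the diamond is NCACS 15, and the bars are the mean ± SD of the group. NCACS 15 is the highest liver for Arntl, Clock and Npas2 and the lowest for Per1, Per2, Per3 and Cry2.

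The period genes encode the inhibitory partners of the cryptochromes, and all 3 had their lowest level in NCACS 15. Per1, which is also induced quickly by glucocorticoid and cAMP signals, had 54.2, 66.8, 27.4, 45.5 and 5.84 CPM in NCACS 11 to 15 and 105, 131, 40.6, 98.8 and 93.3 CPM in CACS 16 to 20. CACS 18 alone of the CACS livers lay within the NCACS span. For Per1 the log2 fold change came to 1.23 (SE 0.497, unadjusted p = 0.0296, adjusted p = 0.177 by edgeR). Per2 had 43.3, 51.7, 25.8, 33.1 and 6.64 CPM in NCACS 11 to 15 and 63.0, 44.0, 68.8, 84.1 and 110.5 CPM in CACS 16 to 20. Here CACS 17 lay within the NCACS span and the other 4 CACS livers were above every NCACS liver. Per2 had a log2 fold change of 1.21 (SE 0.423, unadjusted p = 0.0149, adjusted p = 0.128 by edgeR). Per3 had 84.9, 67.3, 36.5, 57.3 and 2.50 CPM in NCACS 11 to 15 and 55.3, 36.7, 59.6, 68.1 and 46.8 CPM in CACS 16 to 20. The mean of the other 4 NCACS livers was 24.6 times the level in NCACS 15 for Per3, 8.31 times for Per1 and 5.79 times for Per2. The log2 fold change of Per3 was 0.10 (SE 0.578, adjusted p = 0.943 by edgeR). Without NCACS 15 the log2 fold changes were 0.95 for Per1, 0.95 for Per2 and -0.20 for Per3, with adjusted p-values of 0.136, 0.0891 and 0.678 from edgeR.

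The cryptochromes are the direct inhibitors of the BMAL1 and CLOCK pair. Cry1 had 7.71, 4.56, 4.69, 5.81 and 10.47 CPM in NCACS 11 to 15 and 16.2, 6.11, 20.4, 7.35 and 17.1 CPM in CACS 16 to 20. CACS 16, 18 and 20 were above every NCACS liver, and CACS 17 and 19 were within the NCACS span. Cry1 had a log2 fold change of 1.02 (SE 0.351, unadjusted p = 0.0138, adjusted p = 0.123 by edgeR). Cry2 had 66.5, 53.8, 46.5, 57.6 and 29.7 CPM in NCACS 11 to 15 and 66.2, 53.3, 52.9, 48.2 and 62.2 CPM in CACS 16 to 20, and apart from NCACS 15 the groups covered nearly the same span. Its log2 fold change was 0.15 (SE 0.183, adjusted p = 0.674 by edgeR). Without NCACS 15 the log2 fold changes were 1.24 for Cry1 and 0.02 for Cry2, with adjusted p-values of 0.0933 and 0.966 from edgeR.

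Nr1d1 had the smallest p of the 10 genes by edgeR. Its level was 132, 118, 156, 200.5 and 38.0 CPM in NCACS 11 to 15 and 19.6, 72.3, 27.1, 72.3 and 14.3 CPM in CACS 16 to 20. NCACS 11 to 14 were above every CACS liver, and NCACS 15 lay within the CACS span. Between the groups the difference was -1.65 on the log2 scale (SE 0.514, unadjusted p = 0.00767, adjusted p = 0.0930 by edgeR). Without NCACS 15, the only NCACS liver within that span, the groups necessarily did not overlap (118 to 200.5 CPM against 14.3 to 72.3 CPM). The same held for 9.03% of all tested genes without that liver. It was set aside for the values of the clock genes, so this share is not a matched background. The log2 fold change without it was -1.88 (adjusted p = 0.0607 by edgeR). Its paralog Nr1d2 had 88.8, 79.6, 60.9, 100.2 and 44.7 CPM in NCACS 11 to 15 and 78.3, 87.3, 68.4, 76.1 and 41.2 CPM in CACS 16 to 20. Both groups covered nearly the same span, with a log2 fold change of -0.09 (SE 0.232, adjusted p = 0.861 by edgeR) that was -0.23 without NCACS 15 (adjusted p = 0.584). Nr1d1 shares 263 exon bases (8.55% of its exon length) with Thra, a thyroid hormone receptor gene on the opposite strand, and reads there cannot be assigned without the strand setting of the count, which is not given in the sources used here. Thra itself averaged 18.2 ± 2.94 CPM in NCACS and 11.8 ± 3.92 CPM in CACS (SD, n = 5 for both), and its log2 fold change was -0.62 (adjusted p = 0.0980 by edgeR, between 0.0154 and 0.198 over 17 alternatives). Cry2 likewise shares 295 exon bases with the antisense gene D930015M05Rik, which averaged 0.857 CPM in NCACS and 1.24 CPM in CACS.

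Counted together, 0 of the 10 core genes passed an adjusted p of 0.05 in edgeR, against 3.8% of all tested genes. At an unadjusted p under 0.05 there were 5 of 10 (Npas2, Per1, Per2, Cry1 and Nr1d1), against 21.6% of all tested genes. Groups did not overlap for 0 of the 10, against 7.07% of all tested genes. In CACS 5 genes had a higher and 5 a lower fitted level, with a median log2 fold change of 0.00, and the median over all tested genes was -0.01. DESeq2 passed 2 of the 10, Cry1 (adjusted p = 0.0403) and Nr1d1 (adjusted p = 0.0442), against 9.75% of all genes. Over the 17 alternative analyses the adjusted p of Cry1 lay between 0.0403 and 0.233 and that of Nr1d1 between 0.0442 and 0.167, and their log2 fold changes lay between 0.82 and 1.24 and between -1.95 and -1.43. Without NCACS 15, 0 of the 10 genes passed in edgeR, against 1.99% of genes. In an exact two-sided permutation test of the mean log2 CPM over all assignments of the livers to 2 groups of 5, Per2 had p = 0.0159, Per1 p = 0.0317, Nr1d1 p = 0.0397, Cry1 p = 0.0714 and Npas2 p = 0.111, where 0.00794 is the smallest p possible. Without NCACS 15 the same exact test, also unadjusted, gave p = 0.0238 for Per2, 0.0635 for Per1, 0.0238 for Nr1d1, 0.0556 for Cry1 and 0.238 for Npas2. For Nr1d2, Per3, Clock, Arntl and Cry2 it gave p from 0.397 to 0.944.

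**Figure D2:**
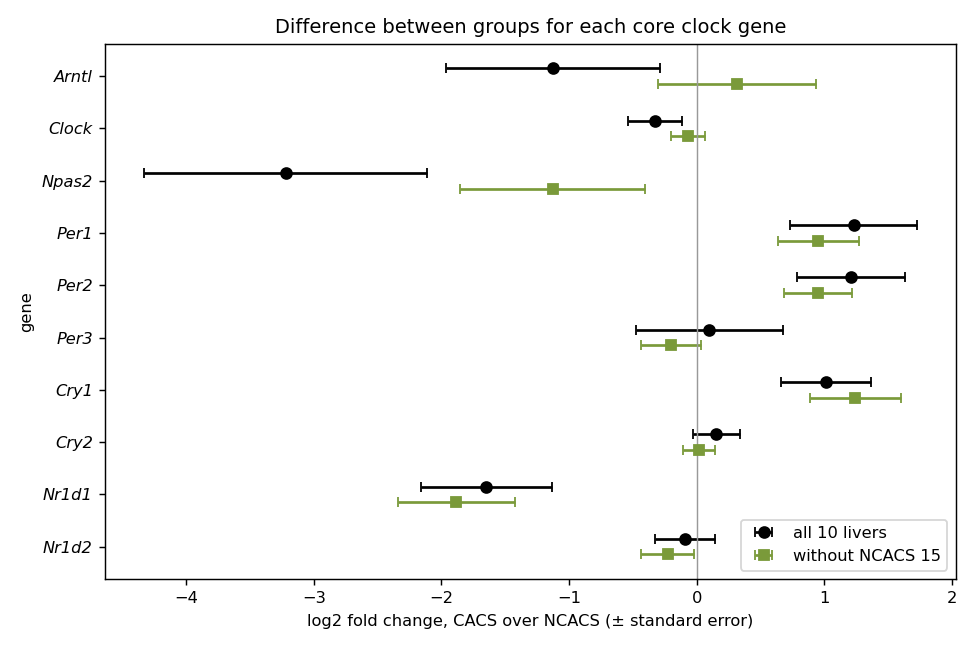
Log2 fold change from NCACS to CACS (x axis; bars are the standard error of the edgeR fit) for each core clock gene (y axis), with all 10 livers (circles) and without NCACS 15 (squares). Arntl moves across 0, from -1.13 to 0.32, as does Per3, from 0.10 to -0.20; the other 8 genes keep their side, with Npas2 moving from -3.22 to -1.13.

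Per kilobase of exon, Nr1d1 was the most abundant gene of the loop in NCACS livers (mean 41.9 CPM per kb), followed by Nr1d2 (13.8), Cry2 (8.04), Per1 (7.09), Per2 (5.48), Per3 (5.17), Clock (2.31), Cry1 (1.99), Arntl (1.27) and Npas2 (0.401). In CACS livers the highest mean was that of Per1 (16.7 CPM per kb), followed by Nr1d1 (13.4), Nr1d2 (12.99), Per2 (12.7), Cry2 (8.95), Per3 (5.55), Cry1 (4.02), Clock (1.84), Arntl (0.583) and Npas2 (0.0412). In NCACS the SD exceeded the mean for Arntl (1.82 CPM per kb) and Npas2 (0.690), both highest in NCACS 15. Neighbours in either order were not tested against each other.

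Ratios of 2 genes within a liver hardly depend on how the libraries were scaled, and were taken on log2 CPM with the prior count. The log2 ratio of Nr1d1 to Nr1d2 was 0.57, 0.57, 1.36, 1.0 and -0.23 in NCACS 11 to 15 and -2.0, -0.27, -1.33, -0.08 and -1.53 in CACS 16 to 20. NCACS 11 to 14 were thus positive and every CACS liver and NCACS 15 negative. The difference in mean, CACS minus NCACS, was -1.70 (exact permutation p = 0.0159, Benjamini-Hochberg adjusted p = 0.0794 over 5 ratios). The log2 ratio of Cry1 to Cry2 differed by 0.73 (exact permutation p = 0.143, adjusted p = 0.238), and that of Npas2 to Clock by -1.57 (exact permutation p = 0.127, adjusted p = 0.238). The log2 ratio of Arntl to Nr1d1, an activator against the repressor of its gene, ranged from -6.31 to -0.17 in NCACS and from -6.15 to -1.73 in CACS livers, with a difference of 1.31 (exact permutation p = 0.357, adjusted p = 0.446). For Per1 over Per2 the difference was 0.10 (exact permutation p = 0.833, adjusted p = 0.833). None of the 5 ratios passed the adjusted threshold, with or without NCACS 15. Without that liver the differences were 2.41 for Arntl over Nr1d1 and 1.09 for Cry1 over Cry2 (adjusted p of the exact permutation 0.0794 for both), -1.92 for Nr1d1 over Nr1d2 (adjusted p of the exact permutation 0.0794), -0.92 for Npas2 over Clock (0.327) and -0.00329 for Per1 over Per2. Those of Arntl over Nr1d1 and Npas2 over Clock thus moved by more than 1.5 times with 1 liver, and that of Per1 over Per2 changed sign.

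**Figure D3:**
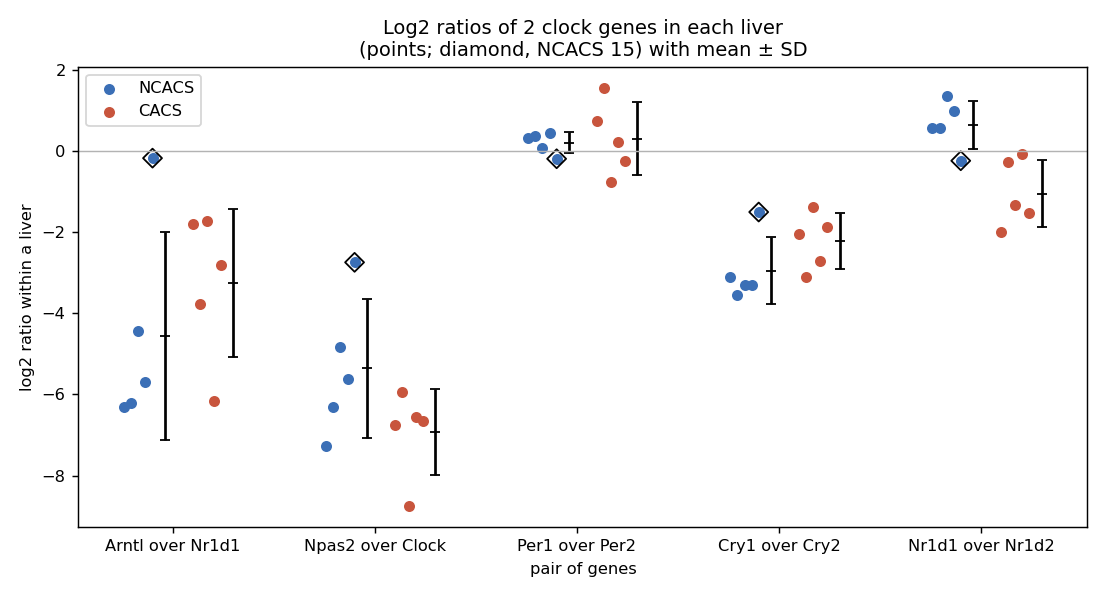
Difference in log2 CPM (prior count of 2) between 2 clock genes within each liver (y axis) for 5 pairs of genes (x axis) in NCACS and CACS livers, with the mean ± SD of each group as bars and NCACS 15 as a diamond. For Nr1d1 over Nr1d2, 4 of 5 NCACS livers are above 0 and all 5 CACS livers are below 0.

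With all 10 livers, the loop genes varied more between livers of the same group than most genes did. The SD of log2 CPM within groups was 1.72 for Npas2, 1.56 for Arntl, 1.48 for Per3, 1.10 for Per1, 1.01 for Nr1d1 and 0.90 for Per2, against a median of 0.27 over all tested genes. These values exceeded those of 99.7%, 99.5%, 99.4%, 98.0%, 97.5% and 96.3% of tested genes, respectively. Cry1 (SD 0.66) exceeded 90.4% of tested genes, Nr1d2 (0.45) 76.0%, Clock (0.37) 67.1% and Cry2 (0.34) 63.4%. Genes were not matched for level in these ranks, and Npas2 had only 3 to 27 reads in NCACS 11 to 14 and 0 to 17 in CACS. The part of counting noise in its SD was not tested. Without NCACS 15 the SD of Per3 was 0.42, above 75.0% of tested genes, and those of Arntl (1.16), Npas2 (1.15) and Nr1d1 (0.84) were still above 98.5%, 98.4% and 95.5% of them. Without it Per1 (0.61), Per2 (0.47), Cry1 (0.63) and Nr1d2 (0.38) were above 88.4%, 79.7%, 89.7% and 70.1% of tested genes, and Clock (0.21) and Cry2 (0.20) were above only 38.9% and 35.9%. The high spread of Arntl, Npas2 and Nr1d1 was thus also present without that liver, while Per1, Per2 and Per3 ranked lower without it. Clock and Cry2 ranked lowest of the loop with and without that liver.

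To describe how the genes varied together, each gene was correlated with each other gene over the 10 livers. The mean of each group was subtracted first. Because the hours are not known, these values cannot show an order in time around the loop. None of the 45 pairs passed an adjusted p of 0.05 in the exact permutation test over all pairings within groups, and 19 had an unadjusted p under 0.05. The share over pairs of all tested genes was not computed, with or without NCACS 15, so these counts have no background. Arntl and Per2 ran in opposite directions (Pearson r = -0.88, exact permutation p = 0.00424, adjusted p = 0.0705; Spearman rho = -0.83, exact permutation p = 0.00535, adjusted p = 0.134). The r was -0.82 without NCACS 15 and CACS 19, the livers farthest from the median on Arntl, and -0.75 without NCACS 15 alone. In NCACS, Per2 was lower at each step of rising Arntl. In CACS, the livers with the least Arntl, CACS 19 and CACS 20, had the most Per2. Among CACS 17, 16 and 18, Per2 instead rose with Arntl (44.0, 63.0 and 68.8 CPM at 5.30, 5.57 and 8.13 CPM of Arntl). At similar Arntl the CACS livers had more Per2 than the NCACS livers. Arntl also had a negative r with Per1 (-0.82, adjusted p = 0.0705 by exact permutation) and Per3 (-0.80, adjusted p = 0.0705 by exact permutation), which were -0.58 and -0.61 without NCACS 15. Its r was 0.79 with Clock, 0.62 with Npas2, 0.44 with Cry1, -0.65 with Cry2, -0.49 with Nr1d1 and -0.41 with Nr1d2. Without NCACS 15 these 6 values were 0.48, 0.15, 0.21, -0.12, -0.08 and 0.05, in the same order, so each was weaker without that liver, the relation to Nr1d1, the repressor of Arntl, included, and that to Nr1d2 changed sign.

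**Figure D4:**
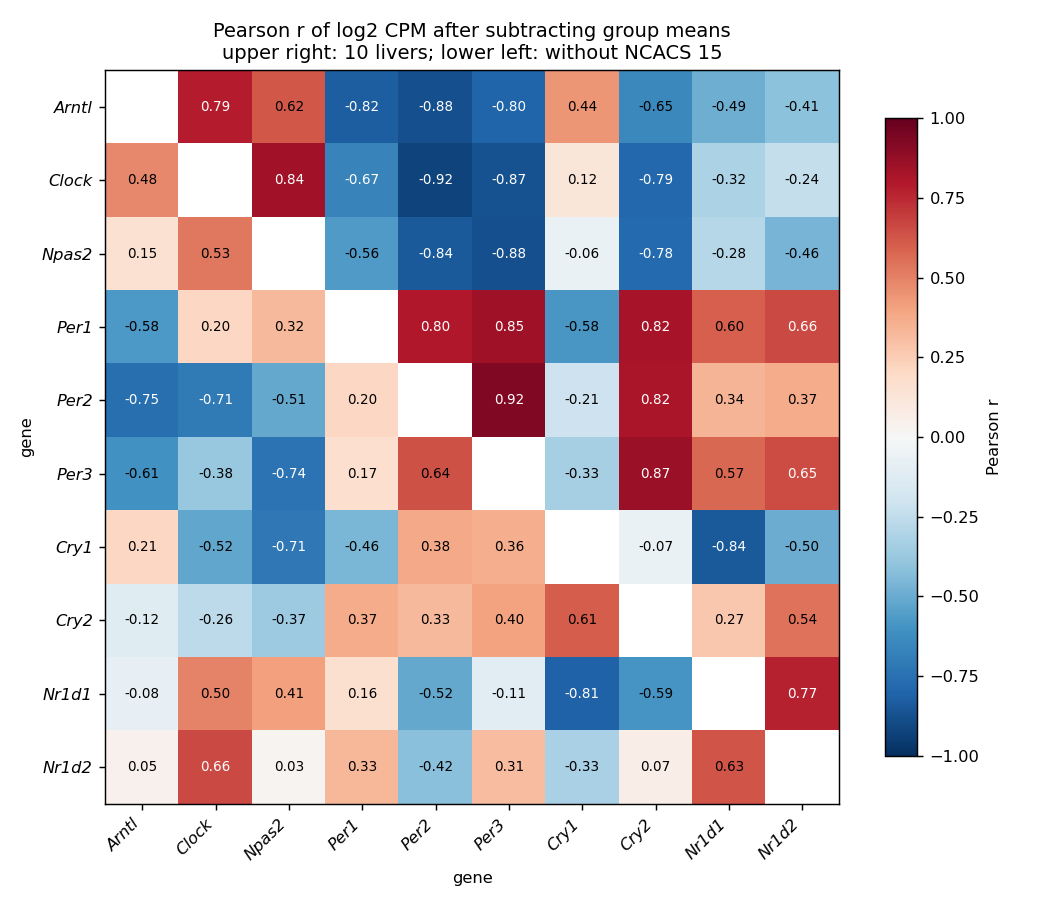
Pearson r between the log2 CPM of each pair of core clock genes after the group means were subtracted, for all 10 livers (upper right) and for 9 livers without NCACS 15 (lower left); red is positive and blue is negative. Arntl, Clock and Npas2 are negative with the 3 Per genes at upper right, and at lower left Clock and Npas2 with Per1 are positive.

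Among paralogs, Per2 and Per3 had r = 0.92 (adjusted p = 0.0705 by exact permutation; 0.64 without NCACS 15), Per1 and Per3 0.85 (0.17 without NCACS 15) and Per1 and Per2 0.80 (0.20 without NCACS 15). Clock and Npas2 had r = 0.84 (0.53 without NCACS 15), Nr1d1 and Nr1d2 0.77 (0.63 without NCACS 15) and Cry1 and Cry2 -0.07 (0.61 without NCACS 15). The relations of Per1 to the other 2 period genes were thus weak without that liver. A further 3 pairs were chosen for mention after their values were seen. Clock and Per2 had r = -0.92 (-0.71 without NCACS 15), Npas2 and Per3 had r = -0.88 (-0.74 without NCACS 15), and Cry1 and Nr1d1 had r = -0.84 (rho -0.84, exact permutation p = 0.0144, adjusted p = 0.0809; -0.81 without NCACS 15). Cry1 and Nr1d1 kept nearly the same r without the 2 livers farthest on Cry1, CACS 18 and CACS 20 (-0.85, exact permutation p = 0.0431). Without NCACS 15 the exact permutation p of this pair was 0.0927 (adjusted p = 0.4375). The 3 livers with the most Cry1, CACS 16, 18 and 20, were also the 3 with the least Nr1d1. Without NCACS 15, 3 of the 45 pairs had an unadjusted p under 0.05 and 0 passed the adjusted threshold.

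**Figure D5:**
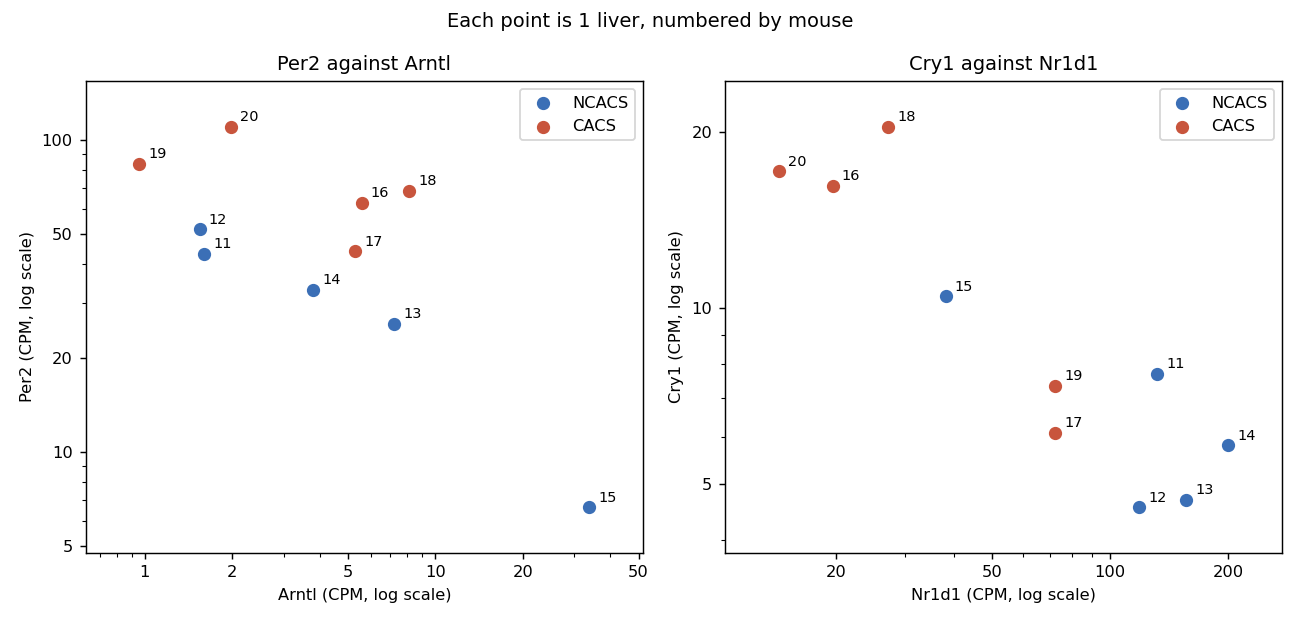
Per2 against Arntl (left) and Cry1 against Nr1d1 (right), both axes in CPM on a log scale, with each point 1 liver numbered by mouse and coloured by group. On the left NCACS 15 lies alone at 33.8 CPM of Arntl and 6.64 CPM of Per2, and on the right CACS 16, 18 and 20 lie at the upper left.

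Because weight loss defined the groups, its relation to the clock genes was examined only within them. The slope of log2 CPM per percentage point of weight change, where a positive slope means a higher level with less loss, was -0.32 for Arntl (exact permutation p = 0.0432), 0.25 for Per1 (exact permutation p = 0.0171) and 0.07 for Cry2 (exact permutation p = 0.0336). None of the 10 slopes passed after adjustment, where the smallest adjusted p of the exact permutation was 0.1296. NCACS 15 had the largest loss of its group, and without it these 3 slopes were -0.19, 0.12 and 0.04.

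Among the genes of 5 further clock lists, 3 of the 45 tested passed in edgeR, against 3.8% of all tested genes. Of the cofactors 2 were called higher in CACS, against 1.89% of all tested genes called in that direction. Nampt, an enzyme of the NAD+ supply that SIRT1 uses, had 66.8, 61.6, 45.7, 44.0 and 37.7 CPM in NCACS 11 to 15 and 142, 48.2, 142, 122 and 115 CPM in CACS 16 to 20 (log2 fold change 1.15, adjusted p = 0.0375 by edgeR). CACS 17 lay within the NCACS span. The call was kept in 7 of 17 alternatives and lost with limma-voom and without any 1 liver other than CACS 17 (adjusted p at most 0.0799). Sfpq, an RNA-binding protein found in PER complexes, had 42.6 to 59.3 CPM in NCACS and 62.3 to 91.3 CPM in CACS without overlap (log2 fold change 0.62, adjusted p = 0.0289 by edgeR, and up to 0.0657 when 1 liver was left out, the call being kept in 11 of 17 alternatives). Fbxl21, a ubiquitin ligase subunit for cryptochromes, was called lower in CACS, against 1.92% of all tested genes called in that direction, with 8.12 to 10.4 CPM in NCACS and 4.01 to 6.25 CPM in CACS (log2 fold change -0.82, adjusted p = 0.0181 by edgeR, and under 0.05 in 17 of 17 alternatives). The counts by list were 0 of 4 output factors, 0 of 7 accessory feedback genes, 0 of 13 kinases and phosphatases, 1 of 9 ubiquitin ligases and deubiquitinases and 2 of 12 cofactors. Their median log2 fold changes were -0.28, 0.45, 0.05, -0.13 and 0.12. Of the 9 accessory feedback genes Rorb and Arntl2 had at most 1 and 7 reads in a liver and were not tested.

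Several direct targets of the loop showed the same liver at an end. Dbp, a D-box activator switched on by BMAL1 and CLOCK, had 82.9, 71.6, 52.1, 66.0 and 1.27 CPM in NCACS 11 to 15 and 18.8, 34.3, 20.7, 58.8 and 19.2 CPM in CACS 16 to 20 (log2 fold change -0.85, adjusted p = 0.508 by edgeR, and -1.16 with an adjusted p of 0.0884 without NCACS 15, in a range from 0.0884 to 0.944 over 17 alternatives). Nfil3, the repressor that binds the same D-boxes, had its highest level in NCACS 15 (72.4 CPM, against 10.7 to 39.2 CPM in the other 9 livers). Ciart, a repressor of BMAL1 and CLOCK, had 0.309 CPM in NCACS 15 and 9.86 to 59.3 CPM in the other 9. Bhlhe40, another E-box repressor, had 101.7, 138, 79.4, 165 and 50.3 CPM in NCACS 11 to 15 and 228, 287, 181, 189 and 140 CPM in CACS 16 to 20 (log2 fold change 0.94, adjusted p = 0.0928 by edgeR, between 0.0195 with DESeq2 and 0.163 over 17 alternatives).

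By likeness over the 10 livers after group means were subtracted, the 5 genes outside the loop closest to Arntl among 9226 genes with a mean of at least 5 CPM were Rab12 (Pearson r = 0.97), Dennd2d (0.96), Clpx (0.95), Cul1 (0.94) and Chka (0.94). Their r without NCACS 15 lay between 0.89 and 0.94. The 5 closest to Nr1d1 were Mcm10 (0.93), Foxo3 (0.92), Tada1 (0.88), Mug2 (0.88) and Vgll4 (0.87), with r between 0.82 and 0.93 without NCACS 15. These are the highest of many values over livers of shared libraries and are given as a description.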

How the data were processed

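RNA of 10 livers was sequenced as stranded poly(A) libraries on single reads. Per the labels and methods, the authors aligned reads to GRCm38 with STAR 2.4.1d, counted them per gene with HTSeq 0.6.1 and deposited raw counts, with no normalization. The annotation release and strand setting are not given in the sources used here. The table held 43629 genes, and the number of its columns left unused was 0. Symbols, coordinates and exon lengths came from GENCODE M21, which lacked 1167 identifiers. Groups and weight changes came from the labels. Each liver is taken as 1 mouse. No 2 livers of a group agreed within sampling noise (smallest chi-square per degree of freedom 46.1).

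Deposited counts were filtered with filterByExpr, scaled by TMM and tested in edgeR 4.0.16 (R 4.3.3) with the quasi-likelihood test and Benjamini-Hochberg adjustment over 14143 genes, with a threshold of 0.05. Log2 CPM used a prior count of 2. Pairs and slopes were tested by two-sided exact permutation within groups, and ratios over all assignments of livers to groups, in NumPy 2.4.6. Alternatives used DESeq2 1.42.0, limma 3.58.1, other scalings, filters and prior counts, and each liver left out. Scripts were tested on simulated data. All members were named. The 9 pairs of Arntl and the 6 paralog pairs were named by rule, as were other clock genes past the threshold, and Dbp, Nfil3, Ciart, Bhlhe40 and Thra were added after their values were seen. The members and lists were chosen with earlier results of these data known. One engineered allele of the mouse model is not reported here.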

Additional observations from a re-analysis of the deposited data

Results flagged for a closer look

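Each group of 5 livers was examined for a liver far from the others on the log2 scale, over 30 combinations of a group with a gene or ratio. Dixon's critical value at the 95% level, 0.71, was passed by 2 of them. Chance flags about 1 in 20 groups. Per3 was low in NCACS 15, with a gap to the next liver of 0.759 of the range of the group (2.50 CPM, against 36.5 CPM in the next NCACS liver). The log2 ratio of Cry1 to Cry2 was high in NCACS 15, with a gap of 0.782 of the range (-1.50, against -3.54 to -3.10 in the other 4 NCACS livers). Both concern the same liver and the genes are correlated, so they are not independent.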

How the results depend on the processing

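The count of clock genes passing the test was 0 with limma-voom, with other scalings and filters and with each liver left out, and 2 with DESeq2. Among all genes 1379 passed with DESeq2, and 178 to 519 with 1 liver left out (178 without NCACS 11). The count of correlated pairs was 7 when livers were pooled without subtracting group means, and 0 to 9 with 1 liver left out (9 without CACS 18, 1 without CACS 19, 2 without CACS 20). For slopes on weight change it was 0 to 1 (1 without CACS 20). With 1 liver left out, log2 fold changes ranged from -1.46 to 0.32 for Arntl (above 0 without NCACS 15 alone), from -0.20 to 0.38 for Per3 (below 0 without NCACS 15 and without CACS 19) and from -0.23 to 0.052 for Nr1d2 (above 0 without NCACS 14 and without CACS 20), and that of Npas2 was -1.13 without NCACS 15. With limma-voom log2 fold changes were 0.73 for Per3, -0.41 for Arntl, -2.14 for Npas2 and -0.17 for Dbp. The difference in the log2 ratio of Per1 to Per2 ranged from -0.22 to 0.36, the r of Arntl and Nr1d2 from -0.72 to 0.045, and that of Cry1 and Cry2 from -0.20 to 0.61, with 0.14 when pooled. The causes were not tested. The within-group SD without NCACS 15 was added after seeing the data. No paired analysis was possible because no replicate number of the labels occurs in both groups. Npas2, at 0 to 27 reads in 9 livers, was limited by depth.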
